A study of Mus musculus with 12 samples.

Results

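The 6 genes Trappc8, Trappc9, Trappc10, Trappc11, Trappc12 and Trappc13 encode the subunits that are added to the shared core of the transport protein particle (TRAPP) to make the TRAPPII and TRAPPIII complexes. They were taken by name from 48448 genes with at least 1 transcript in the deposited table, and all 6 passed the filter on low values (FPKM, fragments counted per transcript length and library size, of 1 or more in 3 or more of the 12 libraries). RNA had been sequenced from colon tumours and from adjacent colon of C57BL/6 mice in a model of colitis-associated cancer. The 4 groups of 3 libraries were adjacent tissue of Synbindinflox mice (flox), adjacent tissue of SynbindinΔIEC mice (ΔIEC), flox tumours and ΔIEC tumours. Synbindin is another name for the protein of Trappc4, which belongs to the shared core, so the genotypes differed in a partner of the 6 genes and not in the 6 genes themselves. The labels call the adjacent samples colon epithelium, while tumours and adjacent tissue are both described as dissected, and the series title speaks of scraped epithelium. Which agents or Cre driver were used, and whether libraries of 1 group came from separate mice, is not stated in the sources used here. The p-values therefore measure the spread between these libraries. Y-linked transcripts reached 1 FPKM in 1 of 3 flox and 2 of 3 ΔIEC libraries of each tissue, so each group held more than 1 mouse and the sexes were not balanced between the genotypes; the part of sex in any difference was not tested.

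TRAPP complexes act as exchange factors: they load Rab GTPases with GTP on membranes of the secretory and endocytic routes. The core is thought to act on Rab1 in transport from the endoplasmic reticulum to the Golgi. In metazoans, Trappc9 and Trappc10 add to that core to form TRAPPII, which acts also on Rab11 at late Golgi and recycling membranes. Trappc8, Trappc11, Trappc12 and Trappc13 form TRAPPIII, which is known for Rab1 activation in early secretion and in autophagy. The comparisons asked how these subunits stood in tumours against adjacent colon, and whether their levels moved when the core subunit Trappc4 was reduced.

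Trappc4 itself checked the labels. It measured 16.8, 17.002 and 17.3 FPKM in flox adjacent tissue against 10.2, 12.6 and 10.4 FPKM in ΔIEC adjacent tissue. In tumours it measured 18.7, 17.5 and 20.9 FPKM (flox) against 12.7, 11.4 and 9.91 FPKM (ΔIEC). The ΔIEC mean was thus 64.9% of the flox mean in adjacent tissue and 59.6% in tumours, with no overlap. The genotypes did not overlap for 7.71% of all genes in adjacent tissue and 6.77% in tumours. As whole libraries of mixed cells, these compare lower with higher Trappc4. Which cells held the remaining transcript was not tested. Over all genes tested, the Trappc4 difference itself was not called (-0.59, adjusted p = 0.931 in adjacent tissue, and -0.70, adjusted p = 1 in tumours, limma on log2(FPKM + 1)). All 8 marker lists had members above 0. The summed FPKM of 12 epithelial markers lay between 9466 and 12611 in flox adjacent tissue, between 7408 and 10178 in ΔIEC adjacent tissue, between 5179 and 6934 in flox tumours and between 6025 and 7444 in ΔIEC tumours. Across the same groups the sum of 10 fibroblast markers lay between 117 and 288, 80.8 and 390, 603 and 895, and 543 and 900 FPKM. Between flox tumours and flox adjacent tissue, 10 of 12 epithelial markers were called lower and 1 higher, while 7 of 10 fibroblast, 6 of 8 endothelial, 4 of 14 leukocyte and 5 of 5 tested squamous markers were called higher. Between ΔIEC tumours and ΔIEC adjacent tissue, 5 of 12 epithelial markers were called lower and 1 higher, while 3 of 10 fibroblast, 0 of 8 endothelial, 4 of 14 leukocyte and 2 of 5 squamous markers were called higher. Of 8 smooth muscle markers, 0 were called in either genotype (medians -0.17 in flox and 0.30 in ΔIEC mice). Of all genes, 19.7% in flox and 15.5% in ΔIEC mice were called lower (36.3% and 29.4% in either direction). Called higher were 2817 (flox) and 2357 (ΔIEC) of 16970 genes. The epithelial counts depended on the scale. With quantile normalization 5 were lower and 1 higher in flox mice, and 2 lower and 2 higher in ΔIEC mice. With each library rescaled to the same protein-coding sum they were 6 and 1, and 4 and 2. Fibroblast markers called higher were 8 (flox) and 3 (ΔIEC) with quantile normalization, and 8 and 7 after the rescaling. The sum of the 14 leukocyte markers lay between 269 and 357 FPKM in flox adjacent tissue, between 409.5 and 623 FPKM in flox tumours and between 586 and 933 FPKM in ΔIEC tumours. In ΔIEC adjacent tissue it was 226, 1269 and 1157 FPKM. Replicate 1 stood apart within that group, while replicates 2 and 3 lay above every library of the other groups. The sum of the 7 squamous markers was 395, 351 and 23.1 FPKM in flox tumours, so that replicate 3 stood apart there. It lay between 18.9 and 40.8 FPKM in ΔIEC tumours. In such bulk samples fewer cells of a type and less RNA per cell cannot be told apart.

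The main pattern lay between tissues. Trappc10, Trappc9 and Trappc12 were lower in flox tumours than in flox adjacent tissue, and Trappc10 and Trappc9 were lower in ΔIEC tumours than in ΔIEC adjacent tissue, while Trappc11, Trappc13 and Trappc8 passed the test in neither genotype. A gene was called at an adjusted p below 0.05 in limma, a linear model fitted to log2(FPKM + 1) of all 16970 genes tested, with Benjamini-Hochberg adjustment over all of them. In the flox mice 3 of the 6 genes were called lower and 0 higher, where 19.7% of all genes were called lower and 36.3% in either direction. In the ΔIEC mice 2 of the 6 were called lower, where 15.5% of all genes were called lower and 29.4% in either direction. With both genotypes averaged, 3 of the 6 were called lower, against 26.4% of all genes (50.6% in either direction). The median log2 difference of the 6 genes was -0.28 in flox and -0.19 in ΔIEC mice, and that of all genes was -0.01 and -0.03. With 6 genes and so wide a background, the counts say little about the group, and the values of each gene follow.

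**Figure D1:**
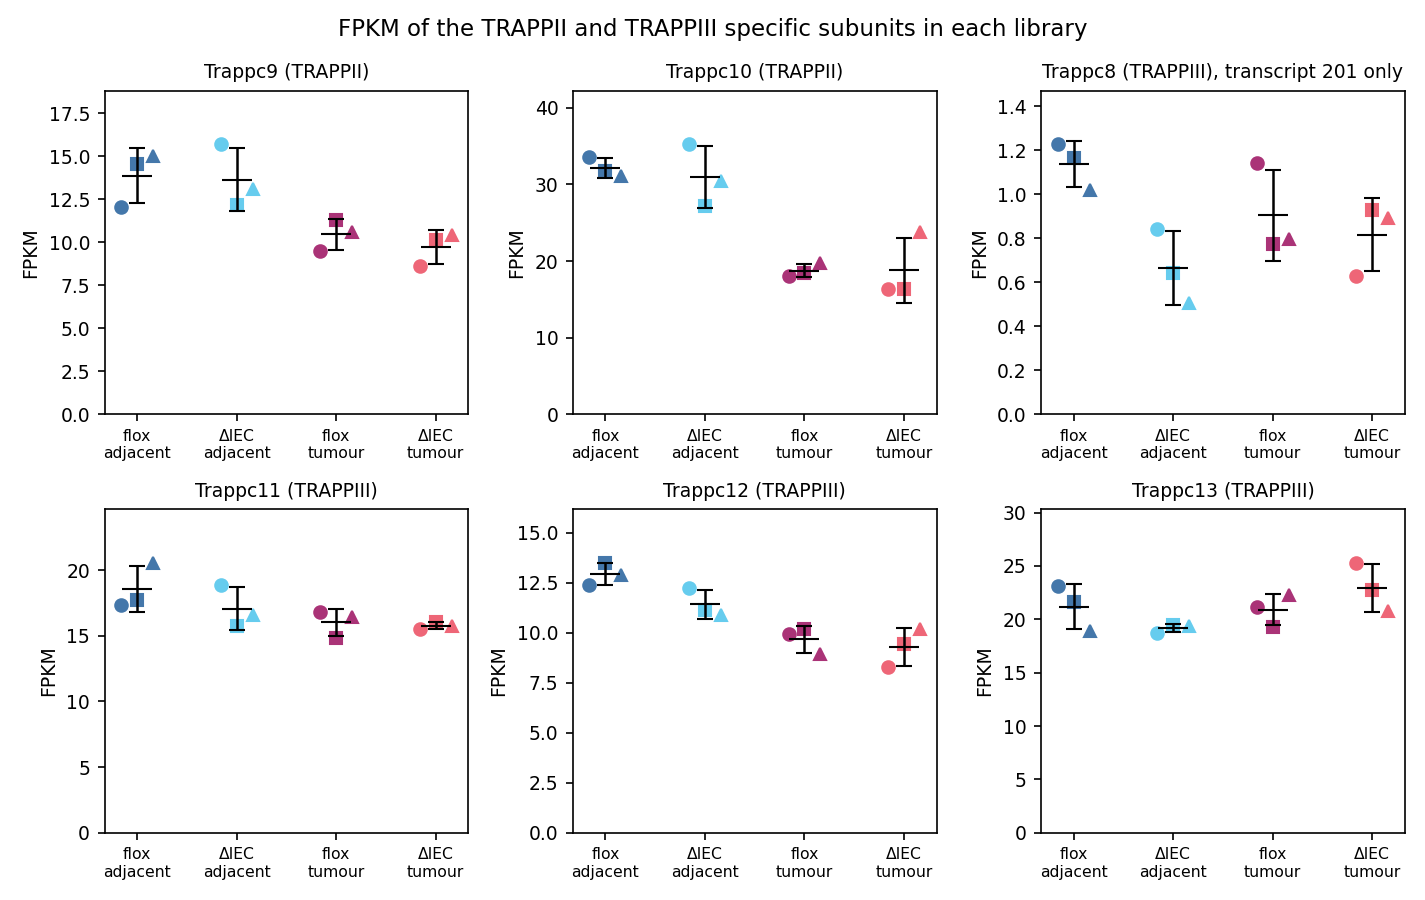
FPKM of each gene (vertical axis, from 0, a scale of its own in each panel) in the 12 libraries by group; circles, squares and triangles are replicates 1, 2 and 3, and bars give the mean and SD of 3 libraries. Trappc10 lies between 27.2 and 35.2 FPKM in all 6 adjacent libraries and between 16.3 and 23.7 FPKM in all 6 tumours; Trappc13 shows no such step.

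The scale of the libraries bears on these differences. The protein-coding genes of a library summed to fewer FPKM in every tumour (355684 to 394917) than in every adjacent library (440002 to 546160). When each library was rescaled to the same protein-coding sum, the median difference of all genes moved to 0.40 in flox, 0.27 in ΔIEC mice and 0.33 for both. Calls then split into 5906 genes higher and 1481 lower in flox mice (2817 and 3346 on the deposited scale), 4170 and 1265 in ΔIEC mice (2357 and 2624), and 6770 and 1920 for both (4100 and 4488). Of the 6 genes, that scale called 1 in flox mice (Trappc13, higher), 2 in ΔIEC mice (Trappc13 higher, Trappc10 lower) and 3 for both (Trappc11 and Trappc13 higher, Trappc10 lower). Values relative to the median are therefore given beside the deposited scale. Which scale is nearer to RNA per cell was not tested.

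Trappc10, a large subunit found in TRAPPII, lies on the minus strand of chromosome 10 (78186725 to 78244641, GRCm38, ENSMUSG00000000374). It measured 33.6, 31.7 and 31.05 FPKM in flox adjacent tissue, 35.2, 27.2 and 30.4 FPKM in ΔIEC adjacent tissue, 18.05, 18.5 and 19.7 FPKM in flox tumours, and 16.3, 16.4 and 23.7 FPKM in ΔIEC tumours. All 6 tumours lay below all 6 adjacent libraries, as 15.8% of all genes did. The tumour mean was 58.4% of the adjacent mean in flox mice (18.7 ± 0.852 against 32.1 ± 1.31 FPKM, SD, n = 3) and 60.8% in ΔIEC mice (18.8 ± 4.25 against 30.9 ± 4.03). Trappc10 fell by 0.75 on the log2 scale in flox mice (SE 0.144, adjusted p = 0.00348, limma) and by 0.70 in ΔIEC mice (SE 0.144, adjusted p = 0.00641). The ΔIEC call was lost with the code in the sample description as a fixed block, a fit that called 651 genes in ΔIEC mice. With both averaged it fell by 0.72 (SE 0.102, adjusted p = 0.00029), and 13.7% of all genes had a lower difference. An exact two-sided permutation test within genotype gave p = 0.005, the smallest of 400 arrangements, while 3 against 3 libraries cannot go below 0.1. Rescaled to the protein-coding sum, its difference was -0.31 in flox (adjusted p = 0.0657, not called), -0.40 in ΔIEC mice (adjusted p = 0.0336) and -0.36 for both. Relative to the median of all genes under that scaling it was -0.71, -0.67 and -0.69. On the deposited scale the epithelial marker sum was also lower in flox tumours. In ΔIEC mice it overlapped slightly (tumours up to 7444 FPKM, adjacent tissue from 7408 FPKM). Its part in the Trappc10 difference was not tested. The sequences before the start of Trappc10, the gene with the largest difference, and of Trappc13, which was not called, are shown, a pair picked by those differences. They are the 250 bases before each start in RefSeq (GRCm38.p6, minus strand, chr10:78244646-78244895 and chr13:104178467-104178716), and capitals mark each GC box (GGGCGG) and ETS core (CCGGAAG) on either strand.
Trappc10: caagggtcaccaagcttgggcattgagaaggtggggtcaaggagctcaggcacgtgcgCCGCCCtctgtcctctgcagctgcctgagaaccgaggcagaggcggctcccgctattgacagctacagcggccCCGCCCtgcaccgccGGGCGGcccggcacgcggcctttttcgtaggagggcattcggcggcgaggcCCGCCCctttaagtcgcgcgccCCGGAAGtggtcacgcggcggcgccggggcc
Trappc13: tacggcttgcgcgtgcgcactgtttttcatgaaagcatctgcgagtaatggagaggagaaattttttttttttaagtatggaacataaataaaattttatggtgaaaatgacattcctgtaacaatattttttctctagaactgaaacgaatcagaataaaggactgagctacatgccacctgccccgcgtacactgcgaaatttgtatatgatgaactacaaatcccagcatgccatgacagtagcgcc

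The Trappc10 window held 70.8% G and C, more than 91.6% of 32536 such windows (median 52.4%), with 4 GC boxes and 1 ETS core. The Trappc13 window held 39.2% G and C, more than 10.2% of windows, with neither motif. A GC box occurred in 32.97% of all windows and an ETS core in 6.95%. An E-box (CACGTG, 6.04% of windows) was found once in the Trappc10 window, an NRF1 motif (3.77%) once in the Trappc13 window and CCAAT (33.8%) once in the Trappc11 window, while TATAAA (12.3%) was found in none of these windows; these motifs are not in capitals. The windows of Trappc12, called lower in flox mice, and of Trappc11, not called, held the same 56.8% G and C. The Trappc11 window held 3 GC boxes and the Trappc12 window 1, with no ETS core in either. Sequences of 4 of the 6 genes were matched and used, and those of Trappc8 and Trappc9 were not used here. These matches describe letters only, and no binding was measured.

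Trappc9 is the other TRAPPII subunit and is known also for binding the NF-kappaB kinases NIK and IKK-beta. It lies on the minus strand of chromosome 15 (72589620 to 73061204, ENSMUSG00000047921), and the imprinted non-coding gene Peg13 lies in an intron on the same strand. It measured 12.03, 14.5 and 15.02 FPKM in flox adjacent tissue, 15.7, 12.2 and 13.1 FPKM in ΔIEC adjacent tissue, 9.48, 11.3 and 10.6 FPKM in flox tumours, and 8.60, 10.1 and 10.4 FPKM in ΔIEC tumours. The highest tumour lay below the lowest adjacent library, as for 15.8% of all genes. Any gene so separated reaches the exact permutation p of 0.005 given next. Trappc9 fell by 0.37 on the log2 scale in flox mice (SE 0.129, adjusted p = 0.044, limma), by 0.45 in ΔIEC mice (adjusted p = 0.0265) and by 0.41 with both averaged (adjusted p = 0.00393, exact permutation p = 0.005). The tumour mean was 75.4% of the adjacent mean in flox and 71.3% in ΔIEC mice. The flox call was close to the threshold and was lost on leaving out any of 8 of the 12 libraries, 3 of them ΔIEC libraries that enter only through the shared spread (adjusted p 0.0508 to 0.136). The ΔIEC call was lost without ΔIEC adjacent replicate 1 (adjusted p = 0.0926), ΔIEC tumour replicate 1 (0.0954) or ΔIEC tumour replicate 2 (0.0506). It was lost too with the sample code as a fixed block. On the protein-coding scale, the differences were 0.04, -0.16 and -0.06, none called. Relative to the median of all genes under that scaling they were -0.36, -0.42 and -0.39.

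The difference in Trappc9 was not even over its transcripts. The table holds 4 matched models of the gene. Of these, 3 begin at or near the annotated gene start (chr15:73060961-73061204 is the first exon of the most abundant, ENSMUST00000089770, called the upstream-start transcript here). The other, ENSMUST00000023276 (the downstream-start transcript), begins 5394 bases further on, in an exon of 63 bases of its own (chr15:73055748-73055810). It encodes 960 codons against 1139 in the upstream-start transcript, with which it shares 20 exons. It also has an internal exon of 27 bases (chr15:73042177-73042203), so few bases set it apart. The coding sequence where each model joins the first shared exon shows what is specific to each start (capitals: bases of the model's own exon, 5′ to 3′, GENCODE M21 transcripts on GRCm38).
Downstream start: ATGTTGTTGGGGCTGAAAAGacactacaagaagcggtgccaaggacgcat
Upstream start: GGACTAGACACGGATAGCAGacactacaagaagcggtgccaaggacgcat

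The downstream-start transcript has 20 coding bases before the junction, beginning with its ATG, and the upstream-start transcript has 584, of which the last 20 are shown. At the internal exon, whose bases are in capitals with 30 bases of each neighbouring exon in lower case, the models differ as follows. The exon is also in another of the upstream models.
Downstream-start transcript: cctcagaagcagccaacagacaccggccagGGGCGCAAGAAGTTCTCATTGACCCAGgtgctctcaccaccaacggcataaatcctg
Upstream-start transcript: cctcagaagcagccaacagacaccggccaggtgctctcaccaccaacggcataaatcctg

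The downstream-start transcript measured 3.57, 4.79 and 5.38 FPKM in flox adjacent tissue, 5.09, 3.32 and 3.43 FPKM in ΔIEC adjacent tissue, 0.621, 1.71 and 2.12 FPKM in flox tumours, and 1.15, 1.14 and 2.28 FPKM in ΔIEC tumours. All 6 tumours lay below all 6 adjacent libraries, as 11.1% of all tested transcripts did. Its share of the gene's FPKM lay between 26.3% and 35.8% in adjacent tissue and between 6.55% and 21.9% in tumours. The 3 upstream models summed to 9.49 ± 0.748 FPKM in adjacent tissue and 8.59 ± 0.731 FPKM in tumours (SD, n = 6), and these ranges overlapped (8.46 to 10.6 and 7.45 to 9.55). The sum is mostly the upstream-start transcript. A smaller upstream model, ENSMUST00000170633, also had all 6 tumours (up to 1.32 FPKM) below all 6 adjacent libraries (from 1.34 FPKM). It differed by -0.25 with both genotypes averaged (adjusted p = 0.0534, limma, not called), so the separation was not particular to the downstream start. In the limma fit over 40417 transcripts, the downstream-start transcript fell by 1.21 on the log2 scale in flox mice (SE 0.273, adjusted p = 0.0114), by 0.98 in ΔIEC mice (adjusted p = 0.0331) and by 1.10 with both averaged (adjusted p = 0.0016). The upstream-start transcript differed by 0.04, -0.12 and -0.04, with a 95% confidence interval of -0.25 to 0.18 for both, and was not called. The ΔIEC call of the downstream-start transcript was lost on leaving out ΔIEC adjacent replicate 1 or 3, or ΔIEC tumour replicate 1 or 2 (adjusted p 0.056 to 0.116).

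A test of the share itself, chosen after the values were seen, compared log2 of each transcript relative to its gene over 32170 transcripts. The downstream-start transcript changed by -0.83 in flox mice (adjusted p = 0.0467, limma), by -0.54 in ΔIEC mice (adjusted p = 0.186, not called) and by -0.69 with both averaged (adjusted p = 0.0127), where 4.08%, 2.89% and 11.8% of transcripts were called. The upstream-start transcript changed by 0.41 (adjusted p = 0.0386), 0.33 (0.0992, not called) and 0.37 (0.00645). Scaling a whole library leaves this share unchanged apart from the pseudocount of 1. With a pseudocount of 0.1 the downstream-start value for both genotypes was -1.09 (adjusted p = 0.0507) and missed the threshold, as did the flox value of -1.29 (adjusted p = 0.181). In flox mice the call was lost on leaving out any of 9 of the 12 libraries (adjusted p up to 0.139). Transcript FPKM are estimates that divide reads of shared exons, and this adds an error that the spread between libraries need not show.

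**Figure D2:**
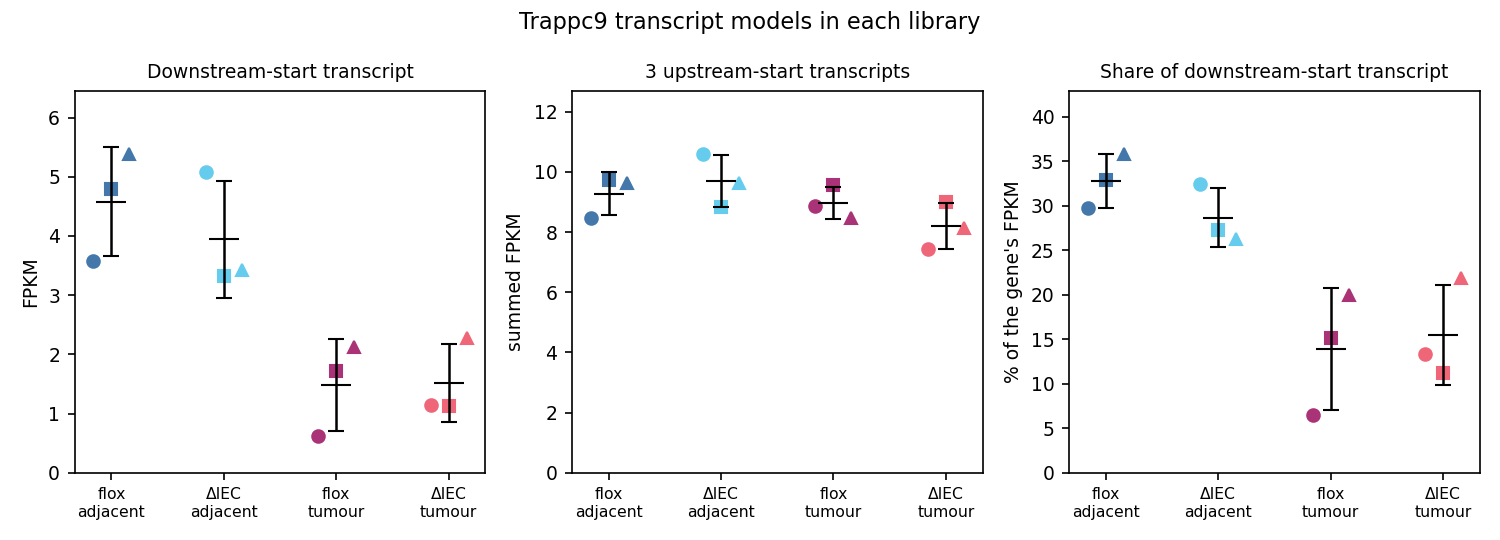
FPKM of the downstream-start transcript, summed FPKM of the 3 upstream models, and the share of the downstream-start transcript in the gene's FPKM (vertical axes, from 0) in the 12 libraries by group; circles, squares and triangles are replicates 1, 2 and 3, bars the mean and SD of 3. The downstream-start transcript and its share step down in tumours, the share from at least 26.3% to at most 21.9%, while the ranges of the upstream sum overlap.

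Trappc12, a TRAPPIII subunit known also for a role at kinetochores with the motor Cenpe, lies on the minus strand of chromosome 12 (28690628 to 28750472, ENSMUSG00000020628). It measured 12.4, 13.5 and 12.9 FPKM in flox adjacent tissue, 12.2, 11.2 and 10.9 FPKM in ΔIEC adjacent tissue, 9.92, 10.2 and 8.92 FPKM in flox tumours, and 8.29, 9.44 and 10.2 FPKM in ΔIEC tumours. Every tumour again lay below every adjacent library, as for 15.8% of all genes, so that the permutation p below is again the smallest possible. Trappc12 fell by 0.38 on the log2 scale in flox mice (95% confidence interval -0.61 to -0.16, adjusted p = 0.0141, limma) and by 0.33 with both averaged (adjusted p = 0.00336, exact permutation p = 0.005). In ΔIEC mice the difference of -0.27 missed the threshold (95% confidence interval -0.49 to -0.05, adjusted p = 0.0638). Without ΔIEC tumour replicate 3 it passed (adjusted p = 0.0453), and the flox call was lost without flox adjacent replicate 2 (adjusted p = 0.0572) or flox tumour replicate 3 (adjusted p = 0.0545). Rescaled to the protein-coding sum, the differences were 0.03, 0.01 and 0.02, and relative to the median of all genes under that scaling -0.37, -0.25 and -0.31. ENSMUST00000168129, the main Trappc12 transcript of 797 codons, carried 79.3% of the gene's FPKM and fell by 0.42 in flox mice (adjusted p = 0.0402). ENSMUST00000170994, a shorter one of 580 codons, carried 16.6% and fell by 0.61 (adjusted p = 0.0288). Neither passed in ΔIEC mice (-0.25 and -0.43, adjusted p = 0.203 and 0.109). Each flox call was lost on leaving out single libraries (7 of the 12 for the main transcript, adjusted p up to 0.145, and 4 for the shorter one, adjusted p up to 0.0971).

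Among all 17 transcripts of the 6 genes that were tested, 4 were called lower in flox mice and 0 higher, where 12.4% of transcripts were called lower. In ΔIEC mice 2 were called lower (9.47% of transcripts), and with both averaged 4 (19.7%). They were the only matched Trappc10 model, the downstream-start transcript of Trappc9 and the main and shorter transcripts of Trappc12, the first 2 of them also in ΔIEC mice.

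Trappc11, a TRAPPIII subunit needed in early secretion and protein glycosylation, lies on the minus strand of chromosome 8 (47490115 to 47533470, ENSMUSG00000038102). It measured 17.4, 17.7 and 20.5 FPKM in flox adjacent tissue, 18.9, 15.7 and 16.6 FPKM in ΔIEC adjacent tissue, 16.8, 14.9 and 16.4 FPKM in flox tumours, and 15.5, 16.02 and 15.8 FPKM in ΔIEC tumours. The flox groups did not overlap, as for 53.5% of all genes, and the ΔIEC groups did. Its differences of -0.20 (95% confidence interval -0.42 to 0.02, adjusted p = 0.146, limma), -0.10 (-0.33 to 0.12, adjusted p = 0.455) and -0.15 for both (adjusted p = 0.0977) were not called. On the protein-coding scale, the differences turned to 0.23, 0.19 and 0.21, the last of them called (adjusted p = 0.0322). Relative to the median of all genes under that scaling they were -0.17, -0.08 and -0.12. Of its 5 matched models 1, of 1133 codons, carried 74.0% of the FPKM.

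Trappc13, a further TRAPPIII subunit, lies on the minus strand of chromosome 13 (104142149 to 104178469, ENSMUSG00000021711). It measured 23.1, 21.6 and 18.9 FPKM in flox adjacent tissue, 18.7, 19.5 and 19.4 FPKM in ΔIEC adjacent tissue, 21.2, 19.3 and 22.3 FPKM in flox tumours, and 25.3, 22.7 and 20.8 FPKM in ΔIEC tumours. The flox groups overlapped, while all 3 ΔIEC tumours lay above the 3 ΔIEC adjacent libraries (43.7% of all genes did not overlap there). The differences were -0.02 in flox (95% confidence interval -0.25 to 0.21, adjusted p = 0.923, limma), 0.24 in ΔIEC mice (0.01 to 0.47, adjusted p = 0.104) and 0.11 for both (adjusted p = 0.224). On 2 other scales Trappc13 was called higher: rescaled to the protein-coding sum it rose by 0.41 in flox (adjusted p = 0.0227), 0.54 in ΔIEC mice (adjusted p = 0.00947) and 0.48 for both (adjusted p = 0.00123), and with quantile normalization by 0.35 in ΔIEC mice (adjusted p = 0.0353) and 0.25 for both (adjusted p = 0.0216). Relative to the median of all genes after the protein-coding rescaling, the values were 0.02, 0.27 and 0.14. Its FPKM were spread over 6 models, of which the largest carried 32.9%.

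Trappc8, the subunit that is known to bring TRAPPIII to forming autophagosomes, lies on chromosome 18 (ENSMUSG00000033382). Only 1 of its 5 annotated models matched a row of the table, a partial model of 2703 bases and 16 exons, so its values are those of that model and cannot be set beside the levels of the other genes. It measured 1.23, 1.16 and 1.02 FPKM in flox adjacent tissue, 0.844, 0.642 and 0.507 FPKM in ΔIEC adjacent tissue, 1.14, 0.773 and 0.798 FPKM in flox tumours, and 0.626, 0.930 and 0.894 FPKM in ΔIEC tumours. Tumours overlapped adjacent tissue in both genotypes, and the differences of -0.17, 0.13 and -0.02 were not called (adjusted p = 0.382, 0.538 and 0.877, limma). After the protein-coding rescaling the values relative to the median of all genes were -0.34, -0.0011 and -0.17.

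By genotype none of the 6 genes was called, nor was any other gene, Trappc4 included, so this fit says little on whether the 6 moved. In adjacent tissue 0 of 6 were called (limma, 0.0% of 16970 genes called, 702 at an unadjusted p under 0.05), and in tumours 0 of 6 (0.0%, 317 at an unadjusted p under 0.05). Without ΔIEC adjacent replicate 1, the library with the lowest leukocyte marker sum, 293 genes were called higher and 10 lower in adjacent tissue (2554 at an unadjusted p under 0.05), still with 0 of the 6. For Trappc10 the ΔIEC minus flox difference was -0.06 in adjacent tissue (95% confidence interval -0.38 to 0.26) and -0.01 in tumours (-0.33 to 0.31). For Trappc9 it was -0.02 (-0.31 to 0.26) and -0.10 (-0.38 to 0.19). The groups did not overlap for 2 genes in adjacent tissue, where 7.71% of all genes did not overlap, and for none of the 6 in tumours (6.77%). These were Trappc12, with a difference of -0.17 (95% confidence interval -0.39 to 0.06, adjusted p = 0.931), and the partial model of Trappc8, at 58.4% of the flox mean (-0.36, -0.69 to -0.04, unadjusted p = 0.0298, adjusted p = 0.931). Trappc11 and Trappc13 differed by -0.11 and -0.13 in adjacent tissue and by -0.02 and 0.13 in tumours. The median of the 6 genes was -0.12 in adjacent tissue and -0.04 in tumours, and that of all genes -0.03 and -0.01. Whether the tumour difference itself differed by genotype was tested as an interaction: 0 of 6 genes were called (0.0% of all genes, 448 at an unadjusted p under 0.05). The largest interactions were 0.30 for Trappc8 and 0.26 for Trappc13 (95% confidence intervals -0.16 to 0.75 and -0.07 to 0.58). The call of Trappc12 in flox and not in ΔIEC mice is thus not shown to be a difference between the genotypes (interaction 0.11, 95% confidence interval -0.20 to 0.43).

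**Figure D3:**
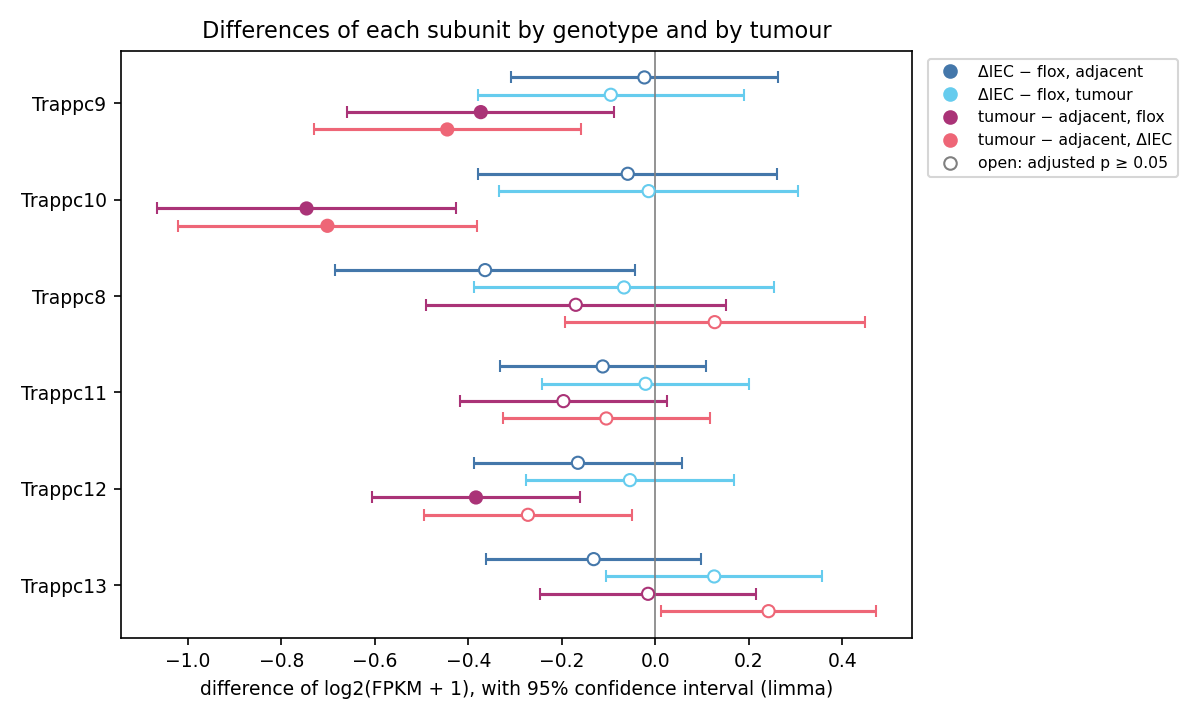
Differences of log2(FPKM + 1) (horizontal axis) with 95% confidence intervals from limma for each gene, by genotype within each tissue and by tissue within each genotype; filled points have an adjusted p below 0.05, open points do not. All 24 intervals are shown; the 5 filled points are tumour differences of Trappc9 (-0.37 and -0.45), Trappc10 (-0.75 and -0.70) and Trappc12 (-0.38).

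The order of the levels depended on which models of a gene were counted. FPKM is per length, but the matched models differ between the genes: 1 of 5 for Trappc10, and for Trappc13 all 6, non-coding ones among them. The levels are given for all matched models, without Trappc8. In adjacent tissue Trappc10 was highest in 6 of 6 libraries, followed by Trappc13 and Trappc11, which exchanged places (Trappc11 above Trappc13 in 2 of 6), and then by Trappc9 and Trappc12. In tumours Trappc13 lay above Trappc10 in 5 of 6 libraries, the exception being ΔIEC tumour replicate 3. With protein-coding models alone, which was added after the values were seen, Trappc13 lay above Trappc10 in 2 of 6 tumours (ΔIEC replicates 1 and 2), and Trappc10 lay above in 6 of 6 adjacent libraries. Trappc10 stayed above Trappc11 in 6 of 6 tumours, at 1.02 to 1.51 times its level. Trappc9 and Trappc12 were close in both tissues, with Trappc9 between 0.970 and 1.28 times Trappc12 in adjacent tissue and between 0.956 and 1.19 times in tumours. The ratio of Trappc10 to Trappc13, singled out after the values were seen, lay between 1.40 and 1.88 in adjacent tissue (median 1.52) and between 0.646 and 1.14 in tumours (median 0.869), without overlap. With protein-coding models alone it lay between 1.86 and 2.34 in adjacent tissue and between 0.897 and 1.57 in tumours, again without overlap. It is a ratio within a library, so no scaling of whole libraries moves it, and it does not say which gene moved. With both genotypes averaged, Trappc10 had the largest fall of the 6 genes (-0.72) and Trappc13 the only positive difference (0.11, not called). A gap between these 2 was thus largely built in by the choice and adds no further result. How many other gene pairs separate in this way was not computed.

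**Figure D4:**
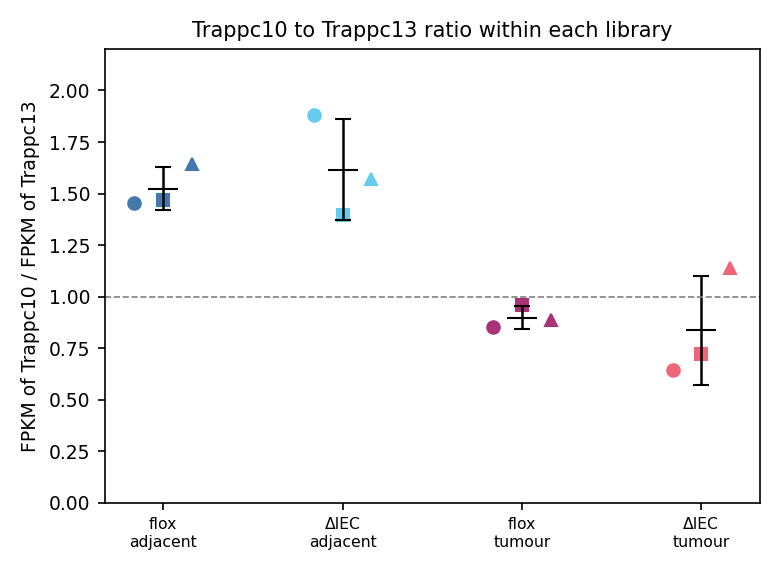
FPKM of Trappc10 divided by FPKM of Trappc13, all matched models summed, in each library (vertical axis, from 0; dashed line, a ratio of 1) by group, with the mean and SD of 3 libraries. All 6 adjacent libraries lie at 1.40 or above and all 6 tumours at 1.14 or below. The pair was picked after the values were seen.

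The other genes of the pathway were read from lists chosen by their known roles. Of the TRAPP core, which is shared by both complexes, 8 of 9 listed genes were tested (Trappc3l was not). In flox mice 0 were called higher and 1 lower, Trappc6a, at -0.79 (29.3 ± 5.98 to 16.4 ± 2.61 FPKM, SD, n = 3). In ΔIEC mice 1 was called higher, Trappc2, at 0.49 (2.69 ± 0.268 to 4.24 ± 0.875 FPKM), and 0 lower. Of all genes, 36.3% in flox and 29.4% in ΔIEC mice were called in either direction. The core medians were -0.11 and 0.07, against -0.28 and -0.19 for the 6 specific subunits. Rescaled to the protein-coding sum, 4 core genes in flox and 3 in ΔIEC mice were called higher and 0 lower. On that scale 5906 of 13399 genes in flox and 4170 in ΔIEC mice were called higher, so these counts say little about the core.

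Of 5 Rab GTPases that TRAPP complexes act on, or are reported to act on, 0 rose and 2 fell in flox mice, and 0 rose and 1 fell in ΔIEC mice. Of all genes, 19.7% in flox and 15.5% in ΔIEC mice were called lower. Rab1a and Rab1b, the Rab1 pair of early secretion, differed by -0.44 and -0.44 in flox mice (adjusted p = 0.0101 and 0.0107, limma) and by -0.24 (adjusted p = 0.112) and -0.47 (adjusted p = 0.0102) in ΔIEC mice. With both genotypes averaged, 3 of the 5 were called lower and 0 higher (26.4% of all genes were called lower). The list median was -0.34, with 1 positive and 4 negative differences. Rab11b, the other Rab11 gene of the list, is not given singly, so Rab11a does not stand for the list. Rab11a, a recycling GTPase of TRAPPII, singled out for that role after its values were seen, differed by 0.08 and 0.12 and was not called. It was called higher with quantile normalization in flox mice (0.56, adjusted p = 0.0143) and after protein-coding rescaling in both genotypes (0.53 and 0.43, adjusted p = 0.0104 and 0.0351). On the protein-coding scale, Rab1a and Rab1b differed by 0.04 and -0.08 with both genotypes averaged, and 0 genes of the list were called lower and 1 (flox) and 2 (ΔIEC) higher. There 5906 (flox) and 4170 (ΔIEC) of 13399 genes were called higher.

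The COPII coat forms the vesicles that TRAPP complexes tether. Of its 13 tested genes, 8 were called lower and 0 higher in flox mice (19.7% of all genes were called lower), and 7 lower and 1 higher in ΔIEC mice (15.5%). With quantile normalization 5 were called lower in each genotype, where 2982 (flox) and 2387 (ΔIEC) of 16970 genes were called lower. The list medians were -0.50 and -0.45. The cargo adaptors Sec24a (-0.92 and -0.93) and Sec24d (-0.79 and -1.02), the inner-coat gene Sec23a (-0.91 and -0.54), the scaffold Sec16a (-0.76 and -0.89) and Preb, the exchange factor that recruits the coat GTPase, at -0.89 and -0.71, fell in both genotypes. Tfg, which organizes exit sites, differed by 0.01 in flox and rose by 0.39 in ΔIEC mice (adjusted p = 0.0322). Rescaled to the protein-coding sum, 3 of 13 were called lower and 3 higher in flox mice and 3 lower and 1 higher in ΔIEC mice, with the list median -0.45 and -0.41 relative to that of all genes. On that scale 1481 (flox) and 1265 (ΔIEC) of 13399 genes were called lower, and 5906 and 4170 higher.

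Of 10 autophagy partners, 1 was called higher and 1 lower in flox mice and 0 higher and 2 lower in ΔIEC mice. For this list and those below, 36.3% (flox) and 29.4% (ΔIEC) of all genes were called in either direction. Atg9a, the membrane protein whose traffic TRAPPIII is known to serve, fell by 0.95 and 0.85 (adjusted p = 0.00363 and 0.00821, limma). Wipi1 rose by 0.48 in flox mice and differed by 0.34 in ΔIEC mice (adjusted p = 0.109). With the protein-coding rescaling 5 of the 10 in flox and 3 in ΔIEC mice were called higher and 1 lower in each. That scale called 5906 (flox) and 4170 (ΔIEC) of 13399 genes higher. Of 6 tested genes that bind Trappc9 or neighbour it, 1 was called higher in flox mice, Ikbkb, which encodes IKK-beta, at 0.40 (adjusted p = 0.0411), and 0 in ΔIEC mice. The neighbour Chrac1 differed by 0.33 and 0.43 and Peg13 by -0.05 and -0.44, none called. The Ikbkb call was lost with median centring (0.36, adjusted p = 0.0712). With quantile normalization 1 gene was called higher in flox and 2 in ΔIEC mice (Ikbkb and Chrac1), and after protein-coding rescaling 4 of 5 tested and 3 of 5. Of all 16970 genes, quantile normalization called 3091 (flox) and 2756 (ΔIEC) higher. The rescaling called 5906 and 4170 of 13399 higher. Cenpe, the partner of Trappc12, differed by 0.52 and 0.40 (adjusted p = 0.0535 and 0.131), and rose with both averaged (0.46, adjusted p = 0.0151). After protein-coding rescaling it was called higher in each genotype (0.92 and 0.68). On the deposited scale the median of 8 proliferation markers, Cenpe not among them, was 0.64 in flox, 0.66 in ΔIEC mice and 0.67 for both. For both, 6 of the 8 were called higher (4100 of 16970 genes were). The part of proliferation in the Cenpe difference was not tested. In the genotype comparisons 0 genes of any of these lists were called. The values in the 2 genotypes come from separate libraries, and within each genotype all lists share the same adjacent libraries.

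**Figure D5:**
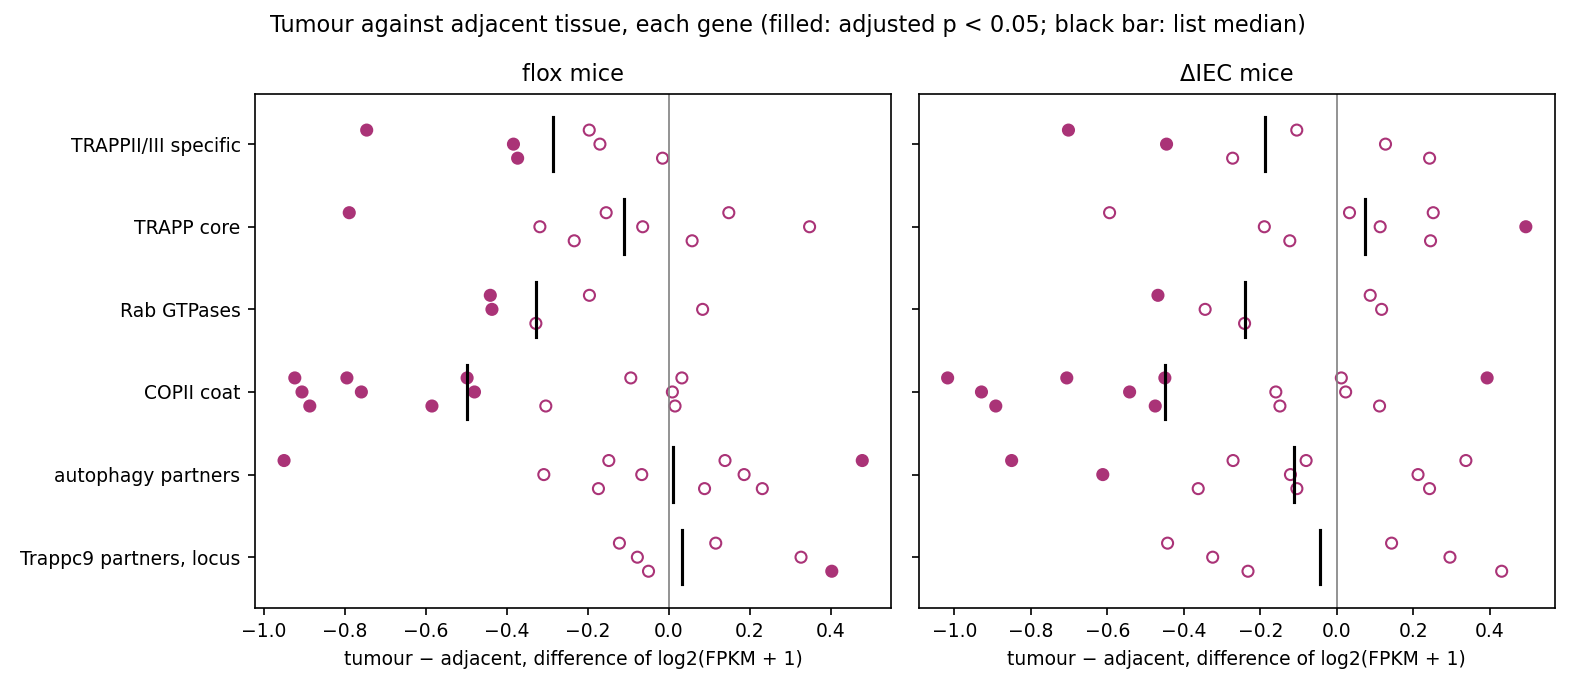
Tumour minus adjacent difference of log2(FPKM + 1) (horizontal axis) for each gene of the 6 specific subunits and of lists chosen by known role, in flox (left) and ΔIEC mice (right); filled points have an adjusted p below 0.05 and black bars are list medians. The median of the specific subunits (-0.28 and -0.19) lies between those of the COPII coat (-0.50 and -0.45) and the TRAPP core (-0.11 and 0.07).

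The genes whose pattern over the 12 libraries was most like each of the 6, among up to 9433 tested protein-coding genes with a mean of at least 5 FPKM, are given as a description; the points share the library scale and the tissue difference. For Trappc10 these were Hipk1 (Pearson r = 0.996), Tnfrsf11a (0.993) and Plekha6 (0.990). For Trappc9 they were Epn1 (0.976), Camsap3 (0.976) and Ube3b (0.974), and for Trappc12 Gpd1l (0.976), Prkaca (0.975) and Abhd14b (0.971). All 9 of these genes had lower mean FPKM in tumours, for example Tnfrsf11a at 49.7 ± 6.66 FPKM in adjacent tissue and 20.4 ± 4.10 in tumours (SD, n = 6). The genes were picked on the same 12 libraries, so their direction, here and below, adds no further result. For Trappc13 they were Gpx1 (0.920), Topors (0.899) and Zmat2 (0.892), each with a higher mean in tumours, and for Trappc11 Pex13 (0.930), Mfsd11 (0.913) and Atp2b1 (0.910). The partial model of Trappc8 had no gene above 0.798 (Spred2). Among the 6 themselves, Trappc9, Trappc10 and Trappc12 correlated at 0.88 to 0.89 with each other. Trappc11, which was not called, correlated with these at 0.67 to 0.74. Trappc13 correlated at -0.69 with Trappc9, at -0.50 with Trappc10 and at -0.52 with Trappc12.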

How the data were processed

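RNA of 12 libraries was measured in 4 groups of 3, grouped by title and genotype label. The deposited table holds log2 values of FPKM per transcript, which the authors computed with Cuffnorm after FastQC and STAR 2.5 on GRCm38, per the submitters' processing notes. Read depth is unknown from FPKM, so no counting interval is given. The summed FPKM per library was 686922 to 821487 in adjacent tissue and 534806 to 706216 in tumours. Log2 values were turned back into FPKM (2 to the power of the value, less 1) and summed per gene over the 118004 of 123062 transcripts (95.9%) that matched GENCODE M21. Overlapping genes can share reads. Replicates correlated at 0.912 to 0.962 over genes.

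Genes with FPKM of at least 1 in at least 3 libraries were tested on log2(FPKM + 1) with limma 3.58.1 (R 4.3.3, trended variance, all 4 groups in 1 fit, Benjamini-Hochberg adjustment over all 16970 genes). A fold on this scale understates the change of low genes. Transcripts were tested the same way. For single genes an exact permutation test within genotype was added. Code was tested on simulated data. Promoter windows were taken from RefSeq and transcripts from GENCODE. Named genes were the 6 members and Trappc4, transcripts with at least 10 percent of a member's FPKM, up to 3 called genes of each list per comparison and direction with the largest differences (or the one with the smallest p), and the 3 most correlated genes per member. The members and lists were chosen with earlier results of these data known. The alternatives were other filters, pseudocounts, scalings, variance settings, blocks by replicate number or sample code, a fold minimum, only the groups compared, and leaving out each library. The transcript share test and the order of levels from protein-coding models alone were added after seeing the data.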

Additional observations from a re-analysis of the deposited data

How the results depend on the processing

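With 3 libraries a group and unknown depth, small differences were not detectable. The calls of Trappc10 in each genotype held in all 12 fits that left out 1 library. Leaving out 1 library gave 1 to 3 called genes of the 6 in flox mice, 1 to 3 in ΔIEC mice and 3 to 3 for both, and 0 to 0 by genotype or interaction, although 303 genes in all were called by genotype in adjacent tissue without ΔIEC adjacent replicate 1. For transcripts the ranges were 2 to 4, 0 to 3 and 4 to 5, and 0 otherwise. In flox mice 1 of the 6 genes was called after protein-coding rescaling (Trappc13, higher) and 1 (Trappc10) with a log2 difference of at least 0.5. In ΔIEC mice 1 was called in a fit of only the groups compared and 1 at a difference of at least 0.5, and for both 1 at that minimum. Member transcripts called fell to 2 (FPKM of at least 5) and 2 (only the groups compared) in flox mice, to 1 (no filter), 1 (FPKM of at least 5) and 1 (only the groups compared, where it is ENSMUST00000179891 of Trappc13, higher, and none is lower) in ΔIEC mice, and to 2 for both at FPKM of at least 5. The cause was not tested. The FPKM minimum of 5 left out Trappc8.

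Signs turned under protein-coding rescaling for the flox tumour difference of Trappc12 (0.030), Trappc13 (0.41), Trappc8 (0.056), Trappc11 (0.23) and Trappc9 (0.042). They also turned for the ΔIEC difference of Trappc12 (0.012) and Trappc11 (0.19), for both genotypes in Trappc12 (0.021), Trappc8 (0.16) and Trappc11 (0.21), and for the adjacent genotype difference of Trappc10 (0.021) and Trappc9 (0.053). Quantile normalization turned Trappc13 in flox mice (0.15), Trappc10 by genotype in adjacent tissue (0.011) and the upstream-start transcript of Trappc9 for both (0.047). Protein-coding transcripts alone turned Trappc11 by genotype in tumours (0.013). Leaving out 1 library turned uncalled values: by genotype in adjacent tissue Trappc10 (-0.15 to 0.026) and Trappc9 (-0.12 to 0.049), by genotype in tumours Trappc10 (-0.18 to 0.072), Trappc11 (-0.071 to 0.012), Trappc12 (-0.11 to 0.018) and Trappc8 (-0.12 to 0.021), in flox mice Trappc13 (-0.092 to 0.046), and for both Trappc8 (-0.066 to 0.017). For the upstream-start transcript the ranges were -0.0083 to 0.095 in flox, -0.22 to 0.012 in ΔIEC mice and -0.091 to 0.027 for both. The flox call of Trappc9 was also lost without a filter (adjusted p = 0.0741), with quantile normalization (0.0531) and without a variance trend (0.0516).

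The labels do not say that a shared replicate number or sample code marks 1 animal, and deviations of same-number pairs correlated at -0.401 to 0.190 and of same-code pairs at -0.192 to 0.170, so pairing was not used. With the sample code as a fixed replicate block, 0 of the 6 genes and 0 transcripts were called in ΔIEC mice. That fit called 651 of 16970 genes and 225 of 40417 transcripts there (4981 and 6856 without the block). Called in flox mice were 3 of the 6 genes and 2 transcripts (5959 genes and 7563 transcripts in all). For both they were 2 and 2 (6224 and 8581 in all). Under that block the ΔIEC differences were -0.52 for Trappc10 (adjusted p = 0.0969) and -0.27 for Trappc9 (0.239), and Trappc12 for both was -0.27 (0.0526). Signs turned for Trappc8 for both (0.055) and for the upstream-start transcript of Trappc9 in ΔIEC mice (0.030) and for both (0.035). A block by replicate number left Trappc9 in flox mice at an adjusted p of 0.0531. With the sample code as a random block instead, 3 of the 6 genes were called in flox mice, 2 in ΔIEC mice and 3 for both. That fit called 5060 of 16970 genes in ΔIEC mice.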
